A study of Mus musculus with 7 samples.

Results

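The regions described here are the accessible sites at 9 genes that encode the transcription factors of hepatocyte identity, namely Hnf4a, Nr5a2, Foxa1, Foxa2, Foxa3, Cebpa, Cebpb, Onecut1 and Prox1. A region was assigned to a gene when it overlapped the gene body or 10 kb on either side of it in the GENCODE M21 annotation of GRCm38. This gave 79 of the 55680 regions in the data, with 15 at Hnf4a, 20 at Nr5a2, 5 at Foxa1, 3 at Foxa2, 7 at Foxa3, 4 at Cebpa, 7 at Cebpb, 6 at Onecut1 and 12 at Prox1. Of them, 11 overlapped a promoter, taken as 200 bp on either side of an annotated transcription start site (TSS) of the gene, and 68 did not. The accessibility of liver chromatin was measured by ATAC-seq, in which a transposase inserts sequencing adapters into exposed DNA. The libraries came from whole liver of healthy male C57BL/6N mice without genetic modification or treatment, with 3 young libraries (3 months) and 4 aged libraries (18 months). The deposited description traces the aged libraries to 3 animals, 1 of which was sampled in 2 lobules, and which libraries share that animal is not given. The aged libraries were therefore analysed as 4 samples, p-values measure the spread between libraries, and each of the 6 possible pairs was also summed into 1 sample.

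Hepatocytes keep their identity through a small set of transcription factors that bind together at liver enhancers and at each other's genes. HNF4A and NR5A2 are nuclear receptors, the FOXA proteins are forkhead factors known for binding to closed chromatin, the C/EBP proteins are leucine zipper factors, and ONECUT1 (HNF6) and PROX1 are homeodomain factors. ONECUT1 is known to act upstream of Foxa2 and Hnf4a in liver development, and PROX1 is known as a partner that represses HNF4A and NR5A2 activity.

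The promoters on which the results below turn are shown with the bases that end just before the TSS, 5′ to 3′ on the strand of the gene, from RefSeq on GRCm38.p6. All 9 genes had an entry among the RefSeq promoters. The upstream promoters of Onecut1, Foxa2 and Nr5a2 are shown because their regions were more accessible in aged liver, and the 2 Hnf4a promoters because they lay on opposite sides of 0. Hnf4a P2 stops where the GENCODE transcript starts. Capitals mark matches to binding words on either strand, ATTGATT for ONECUT factors and GTTAATNAT for HNF1.
Onecut1 promoter, chr9:74861671-74861920, plus strand: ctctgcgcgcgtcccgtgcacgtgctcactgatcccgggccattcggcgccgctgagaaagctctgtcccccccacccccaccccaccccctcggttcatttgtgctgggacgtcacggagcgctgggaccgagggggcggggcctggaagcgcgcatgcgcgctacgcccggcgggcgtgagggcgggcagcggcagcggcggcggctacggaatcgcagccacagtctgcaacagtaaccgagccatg
Foxa2 promoter, chr2:148046970-148047219, minus strand: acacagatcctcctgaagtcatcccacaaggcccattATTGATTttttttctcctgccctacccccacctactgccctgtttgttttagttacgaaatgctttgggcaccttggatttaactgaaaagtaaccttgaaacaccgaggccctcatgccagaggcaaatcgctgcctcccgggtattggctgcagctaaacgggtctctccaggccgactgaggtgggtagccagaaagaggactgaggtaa
Nr5a2 upstream promoter, chr1:136960449-136960698, minus strand: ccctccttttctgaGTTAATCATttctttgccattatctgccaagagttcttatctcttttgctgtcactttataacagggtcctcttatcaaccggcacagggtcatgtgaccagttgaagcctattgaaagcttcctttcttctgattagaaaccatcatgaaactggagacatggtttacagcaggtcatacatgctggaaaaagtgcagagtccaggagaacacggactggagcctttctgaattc
Hnf4a P2, chr2:163506607-163506807, plus strand: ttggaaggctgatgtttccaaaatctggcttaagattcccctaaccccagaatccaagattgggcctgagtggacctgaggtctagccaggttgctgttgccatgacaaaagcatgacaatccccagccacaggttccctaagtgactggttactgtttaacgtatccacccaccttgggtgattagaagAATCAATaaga
Hnf4a P1, chr2:163546905-163547154, plus strand: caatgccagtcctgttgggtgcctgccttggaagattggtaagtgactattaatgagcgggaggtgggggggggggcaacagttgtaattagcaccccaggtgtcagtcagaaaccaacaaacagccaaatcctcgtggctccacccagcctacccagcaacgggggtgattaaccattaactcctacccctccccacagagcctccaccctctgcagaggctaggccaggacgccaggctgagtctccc
The ONECUT word stood in the shown bases of Foxa2 and of Hnf4a P2, and 2.61% of 32851 RefSeq promoters held it in the 250 bases before the start. The HNF1 word stood in those of Nr5a2, and 0.737% of promoters held it. The shown Onecut1 and Hnf4a P1 bases held none of the 7 words searched. The Onecut1 stretch was the richest in GC of the 5, at 71.6%, with 31 CG dinucleotides, and that of Nr5a2 had 43.2% and 2. A match to a word is a description of the sequence and no evidence that a factor was bound.

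The 7 libraries held between 4474652 and 25461110 counts in regions, and the median count per region was between 35 and 241. Levels are given as CPM, counts divided by the size of the library after TMM scaling, a method that sets the libraries so that most regions do not differ. The ages were compared by the quasi-likelihood test of edgeR over all regions, and a region was called at a Benjamini-Hochberg adjusted p under 0.05. Every fold change is aged over young on the log2 scale, with its standard error (SE). The hepatocyte label of the tissue was checked on marker promoters. Of 10 hepatocyte markers, 9 had a promoter region, with a summed level of 1020.5 to 1159.3 CPM in young and 1176.0 to 1383.7 CPM in aged libraries, so that every aged library was higher in the sum. At the strongest promoter region of each gene, 1 of the 9 was called more accessible and 0 less. Over all promoter regions these shares were 4.48% and 2.06%. The 1 was Apoa1, with a mean of 186.9 CPM in young and 270.7 CPM in aged liver. Of 8 stellate cell markers, 5 had a promoter region, at 26.5 to 31.4 CPM in young and 15.5 to 23.7 CPM in aged libraries, so that every aged library was lower in the sum, and Des, Pdgfrb and Dcn had none. Of the 5, 0 were called in either direction, and their strongest promoter regions had a median of only 2.16 CPM. Endothelial (5 of 8 markers, 76.6 to 89.5 and 62.2 to 102.8 CPM) and cholangiocyte markers (3 of 7, 43.8 to 52.0 and 39.4 to 56.9 CPM) overlapped between the ages. Macrophage markers had 1 promoter region of 8, at 2.22 to 2.65 CPM in young and 0.588 to 2.80 CPM in aged libraries, with Adgre1, Csf1r and Cd68 among those without one, and none of 8 lymphocyte markers had one. In bulk tissue, more nuclei of a cell type and more open chromatin per nucleus cannot be told apart, and the part of these marker differences in the results below was not tested.

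At the hepatocyte factors, 5 of the 79 regions were more accessible and 1 was less accessible in aged liver. The 5 lay at the promoters of Onecut1, Foxa2 and Nr5a2, upstream of Nr5a2 and within Hnf4a, and the 1 lay in an intron of Prox1. These are 6.33% and 1.27% of the member regions, compared with 2.44% of all regions called more accessible and 3.30% called less accessible. The balance over all regions depended on the processing. It turned to 4.96% more and 3.47% less accessible with the size factors and Wald test of DESeq2 and to 6.28% and 3.67% with GC offsets, and with total counts it stayed on the side of less accessible regions, at 0.975% and 5.26%. Foxa1, Foxa3, Cebpa and Cebpb had no called region. Every aged library was above every young one in 10 member regions and below in 7, while over all regions these were 10.2% and 11.6%. In the other 62 the ages overlapped. Without adjustment 28 member regions had an edgeR p under 0.05, 17 higher and 11 lower in aged liver, compared with 24.6% of all regions. Altogether 38 member regions had a log2 fold change above 0 and 41 below, with a median of -0.03, close to the -0.04 of all regions.

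**Figure D1:**
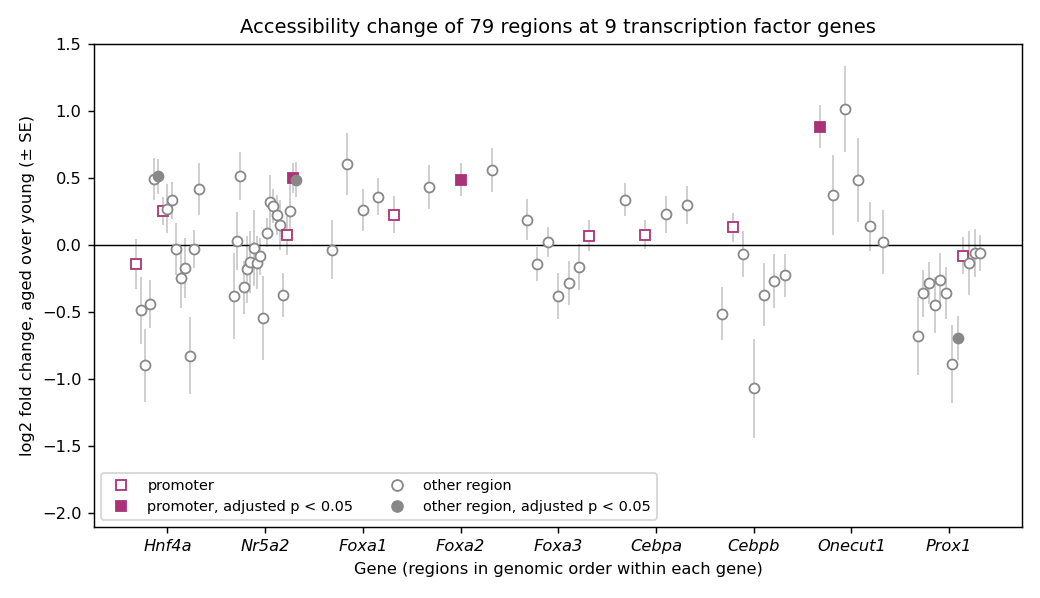
Log2 fold change (aged over young, ± SE) of each of the 79 regions, grouped by gene and in genomic order within a gene. Squares are promoters and circles other regions, and filled symbols passed an adjusted p under 0.05: 5 above 0 and 1 below. In this fit all 12 regions of Prox1 lie below 0, and all 6 of Onecut1, 3 of Foxa2 and 4 of Cebpa lie above.

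Promoter regions had higher fold changes than the other regions of these genes, and this difference was not tested. Of the 11 promoter regions, 3 (27.3%) were called, all 3 more accessible, and 0 less accessible by edgeR, where 4.48% of the 15422 promoter regions were called more accessible and 2.06% less accessible. At an unadjusted p under 0.05, and by DESeq2 and limma voom, 0 of the 11 were less accessible as well. The median log2 fold change was 0.14 over the 11 promoter regions and -0.06 over the other 68, and the same medians over all regions were 0.09 and -0.09. Taking for each gene the promoter region with the highest level, 8 of 9 lay above 0, from -0.08 at Prox1 to 0.88 at Onecut1, with a median of 0.14. At Nr5a2 this took the internal promoter, and by level per length, a choice added after seeing the data, it took the upstream one and the median was 0.23. With total counts 5 of 9 lay above 0 and the median was 0.016, with abundance offsets 2 of 9 did, and without young replicate 3 all 9 did with a median of 0.27. These counts depended on the libraries and the scaling. Without young replicate 1, and likewise without young replicate 2, no member region was called in either direction, and over all regions 55 and 196 were then called more accessible and 133 and 250 less accessible. The numbers of more and less accessible member regions were 3 and 0 without young replicate 3 (1056 and 1595 over all regions), 1 and 0 without aged replicate 1 (129 and 273) and 1 and 0 without aged replicate 3 (176 and 475). Promoters called numbered 1 in each of the last pair. Offsets fitted on the mean abundance of regions, which by construction remove the average change of regions of the same strength, left 0 more accessible member regions, where 0.483% of all regions were called more accessible, and the median of the main promoters at -0.22.

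Onecut1, the gene of the cut-homeodomain factor HNF6, had the largest fold change among the 9 main promoters. Its promoter region on chromosome 9 from 74861255 to 74868396 covers the TSS and the start of the gene over 7142 bp, the longest of the member regions. The 3 young libraries had 113.4, 120.6 and 150.6 CPM, and the 4 aged libraries 296.9, 184.9, 249.1 and 212.5 CPM. Every aged library was above every young one, and the lowest aged library, replicate 2, was closer to the highest young library than to the highest aged one. Mean accessibility rose from 128.2 ± 19.7 (SD, n = 3) in young to 235.9 ± 48.4 CPM (SD, n = 4) in aged liver, with a fold change of 0.88 on the log2 scale (SE 0.160, adjusted p = 0.012 from edgeR), or 1.85-fold. The call was lost without young replicate 1 (adjusted p = 0.064), without young replicate 2 (adjusted p = 0.0576) and with abundance offsets (log2 fold change 0.45, adjusted p = 0.214). The other 5 regions of Onecut1 were also above 0, from 0.02 to 1.02, and none was called. With total counts 5 of the 6 regions were above 0. The highest of them, an intronic region from 74877848 to 74878473, had only 2.53 to 3.15 CPM in young and 2.75 to 7.56 CPM in aged libraries, which overlapped (adjusted p = 0.0716 from edgeR). Gm20649 overlaps the gene, so that their accessibility cannot be told apart there.

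Foxa2, a forkhead factor known for opening chromatin at liver enhancers and for its role in fasting metabolism, rose at its promoter as well. The region on chromosome 2 from 148043931 to 148047242 covers all 4 annotated starts. It had 94.6, 102.1 and 87.0 CPM in young and 150.4, 112.2, 140.1 and 128.0 CPM in aged libraries. The ages did not overlap, although aged replicate 2 lay near the young libraries. Mean accessibility rose from 94.6 ± 7.55 (SD, n = 3) in young to 132.7 ± 16.4 CPM (SD, n = 4) in aged liver, with a fold change of 0.49 on the log2 scale (SE 0.122, adjusted p = 0.0354 from edgeR). The call was lost, at adjusted p from 0.0679 to 0.111, without young replicate 1, 2 or 3 and without aged replicate 1 or 3, and it was lost with total counts (0.37, adjusted p = 0.0621) and with abundance offsets (0.14, adjusted p = 0.525). It was also lost after thinning all libraries to the smallest total (adjusted p = 0.0571), with at least 10 counts in every library (0.0695) and with the replicate block (0.0517). The region upstream of the gene, from 148048316 to 148049126, changed by 0.56 on the same scale without passing the test (adjusted p = 0.0576 from edgeR), and aged replicate 4, at 23.9 CPM, lay below the highest young library. The downstream region, which is also the promoter of 9030622O22Rik, had 0.44 (adjusted p = 0.119).

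The other forkhead genes had no called region. At Foxa1 the promoter on chromosome 12 from 57544987 to 57547164 had 65.3, 62.8 and 87.5 CPM in young and 98.3, 77.5, 79.1 and 78.3 CPM in aged libraries, a log2 fold change of 0.23 (SE 0.138, adjusted p = 0.332 from edgeR). The ages overlapped, because young replicate 3 exceeded 3 of the aged libraries. Of the other Foxa1 regions 3 lay above 0 and 1 below, and the coding exon region was at 0.36 (adjusted p = 0.124). Foxa3, the family member with the highest promoter level per length, had a promoter region on chromosome 7 from 19022580 to 19025002 with 102.4 to 121.2 CPM in young and 103.6 to 131.0 CPM in aged libraries (log2 fold change 0.07, SE 0.115, adjusted p = 0.746). That region is shared with the promoter of Sympk, so its signal belongs to both genes. Of the 6 other Foxa3 regions 4 lay below 0, with 1 at -0.38 (adjusted p = 0.188) as the lowest. The strongest per length lay in Irf2bp1, from 19006626 to 19008160, at 0.02 (adjusted p = 0.93).

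**Figure D2:**
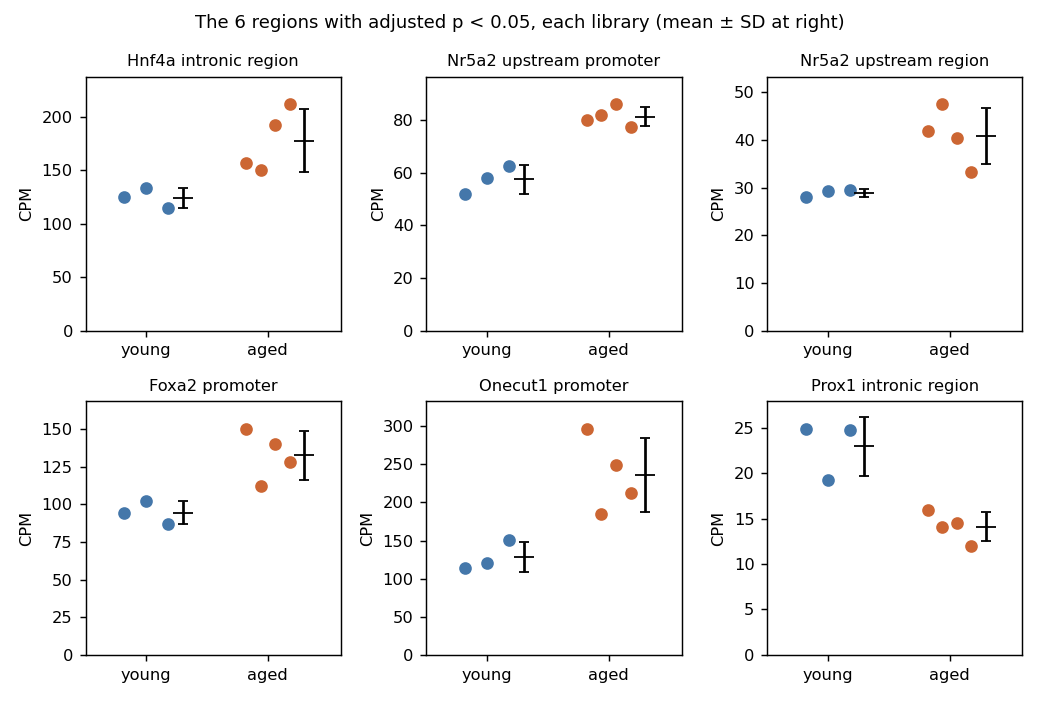
CPM of each library in the 6 regions with an adjusted p under 0.05, with young libraries in blue, aged libraries in orange and the mean ± SD beside each group. In all 6 panels the ages do not overlap. The aged libraries are higher in 5 panels and lower at Prox1.

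Nr5a2 encodes LRH-1, a nuclear receptor of bile acid and cholesterol metabolism, and has several promoters. The upstream promoter on chromosome 1 from 136957551 to 136961033, at the most 5′ start, had 51.8, 58.2 and 62.6 CPM in young and 80.1, 82.2, 86.1 and 77.3 CPM in aged libraries. The aged libraries were all higher and spanned a narrow range. Mean accessibility rose from 57.5 ± 5.43 (SD, n = 3) in young to 81.4 ± 3.74 CPM (SD, n = 4) in aged liver, with a fold change of 0.50 on the log2 scale (SE 0.109, adjusted p = 0.0212 from edgeR). A region further upstream, from 136966129 to 136967589, had 28.0, 29.3 and 29.6 CPM in young and 41.9, 47.5, 40.4 and 33.2 CPM in aged libraries, a log2 fold change of 0.49 (SE 0.132, adjusted p = 0.0459). Its ages did not overlap either, with aged replicate 4 nearest to the young libraries. The promoter call was lost without young replicate 1 or 2 and without aged replicate 1 or 3 (adjusted p from 0.0642 to 0.1). The upstream call held only without aged replicate 4 and was lost without each of the other 6 libraries (adjusted p from 0.0645 to 0.142). Both were lost with abundance offsets, at 0.23 and 0.33, and the upstream region also with total counts (0.37, adjusted p = 0.119) and with at least 10 counts in every library (adjusted p = 0.0758).

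The internal promoter of Nr5a2, from 136945862 to 136949804, which covers 2 coding starts, was at 63.5, 66.3 and 95.9 CPM in young and 74.1, 84.9, 83.8 and 72.3 CPM in aged libraries. The ages overlapped because young replicate 3 was the highest of all 7, and the log2 fold change was 0.07 (SE 0.143, adjusted p = 0.794 from edgeR). It turned to -0.03 without young replicate 1 and to -0.01 without young replicate 2, and was 0.29 without young replicate 3. The difference between the changes of the 2 promoters was not tested. Per length, the promoters had like levels in young liver, 16.5 CPM per kb upstream and 19.1 CPM per kb inside, while the upstream promoter reached 23.4 CPM per kb in aged liver. The other 17 Nr5a2 regions ranged from -0.54 to 0.52 and none was called. The lowest, -0.54, lay in the weakest region of the gene per length (3.41 CPM per kb). The strongest per length, an intronic region from 136925554 to 136926603 (26.1 CPM per kb), had 22.2 to 25.9 CPM in young and 28.6 to 31.7 CPM in aged libraries, without overlap (0.29, adjusted p = 0.168).

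Hnf4a, which encodes the nuclear receptor at the centre of the hepatocyte network, is read from the upstream promoter P2 and from P1, the promoter known for adult liver. The P1 region on chromosome 2 from 163546546 to 163550205 had 71.5, 76.9 and 75.3 CPM in young and 83.3, 88.5, 89.4 and 94.9 CPM in aged libraries. Every aged library was higher, with a log2 fold change of 0.26 (SE 0.103) that did not pass the test (adjusted p = 0.145 from edgeR). It passed in 1 of 22 alternatives, with offsets fitted on GC content (adjusted p = 0.0269), and with abundance offsets it turned to -0.041 (adjusted p = 0.875). The P2 region from 163506179 to 163507933 had 34.4, 25.8 and 30.3 CPM in young and 20.5, 28.4, 22.9 and 37.0 CPM in aged libraries. The ages overlapped fully, with aged libraries at both ends of the range, and the log2 fold change was -0.14 (SE 0.187, adjusted p = 0.682). P1 was the stronger of the 2 per length, at 22.6 CPM per kb compared with 16.2 CPM per kb.

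The called region of Hnf4a lay between its promoters, from 163537621 to 163542093, at 5.09 to 9.57 kb upstream of the coding start of P1. The stretch upstream of P1 is known to hold a liver enhancer of the gene. The region also covers the promoter of the antisense transcript Hnf4aos, and the 2 cannot be told apart because ATAC-seq reads carry no strand of a transcript. It had 124.7, 133.8 and 114.9 CPM in young and 157.0, 150.0, 192.1 and 211.9 CPM in aged libraries, so that all aged libraries were higher and replicates 3 and 4 the highest. Mean accessibility rose from 124.5 ± 9.43 (SD, n = 3) in young to 177.8 ± 29.3 CPM (SD, n = 4) in aged liver, with a fold change of 0.51 on the log2 scale (SE 0.134, adjusted p = 0.041 from edgeR). The call held only without aged replicate 2 and was lost without each of the other 6 libraries (adjusted p from 0.0547 to 0.118), with total counts (0.39, adjusted p = 0.0588) and with abundance offsets (0.12, adjusted p = 0.573). Thinning to the smallest total (adjusted p = 0.0542), at least 10 counts in every library (0.0805) and the replicate block (0.0981) ended it as well. A neighbouring intronic region from 163534988 to 163535596, the strongest of Hnf4a per length at 40.8 CPM per kb, had 19.0 to 21.4 CPM in young and 22.8 to 35.3 CPM in aged libraries (log2 fold change 0.49, adjusted p = 0.076).

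In the reported fit the sign of the fold changes along Hnf4a varied in blocks. Only 1 of its 15 regions was called, and the pattern was not tested. With abundance offsets P1 was at -0.041. The 4 regions nearest to P2, the P2 region included, lay below 0, from -0.90 to -0.14, the next 5 up to the exons behind P1 lay above 0, from 0.26 to 0.51, and of the last 6 only the most distal one was above 0. Among the regions below 0, the intronic regions from 163525703 to 163526018 (log2 fold change -0.90, adjusted p = 0.0648 from edgeR) and from 163532069 to 163532583 (-0.44, adjusted p = 0.15) had every aged library below every young one. So did a downstream region from 163573108 to 163573385 (-0.82, adjusted p = 0.0997). The regions at -0.90 and -0.82 were weak, at 4.50 to 6.25 CPM in young libraries.

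**Figure D3:**
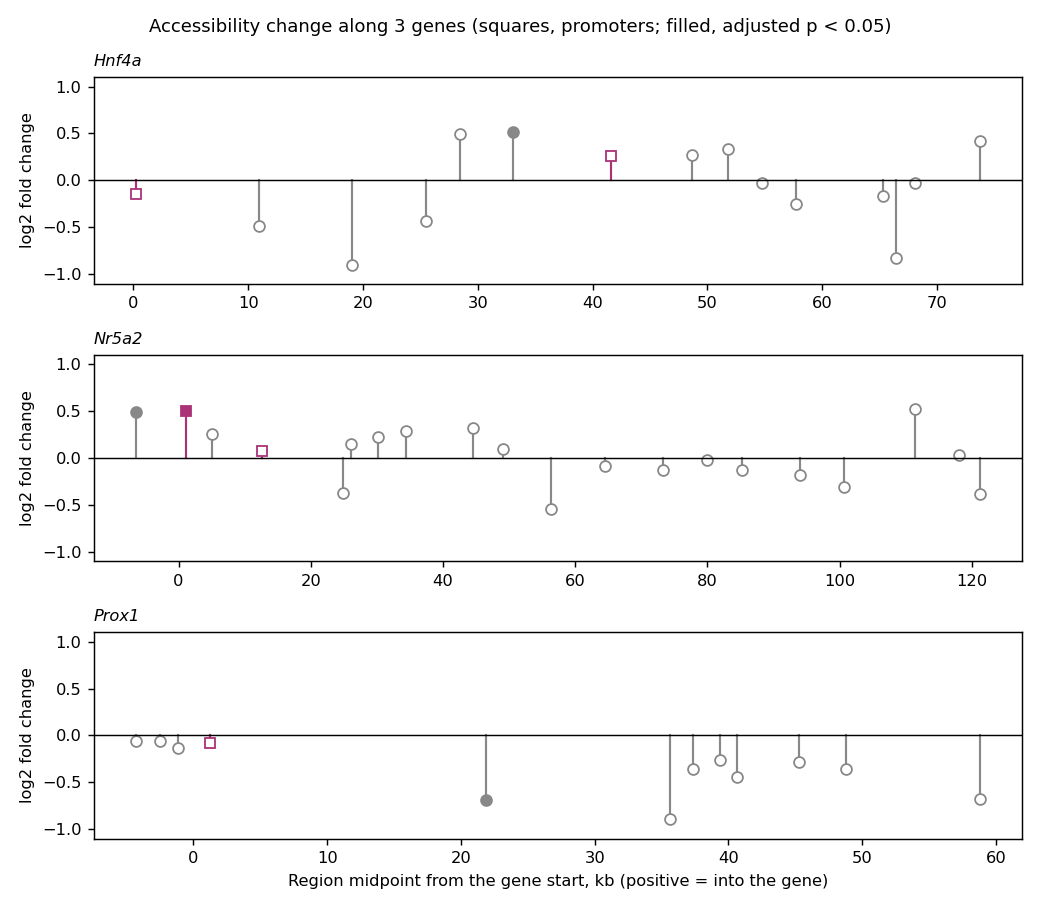
Log2 fold change of each region (vertical axis) against the distance of its midpoint from the gene start in kb (horizontal axis) for Hnf4a, Nr5a2 and Prox1. Squares are promoters and filled symbols passed an adjusted p under 0.05. At Hnf4a the values run below 0, above 0 and below 0 again along the gene, apart from the most distal region, which is above 0, at Nr5a2 the 2 filled symbols lie at the 5′ end, and at Prox1 every value is below 0.

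Prox1, a homeobox gene of hepatocytes that also marks lymphatic endothelium, was the only member whose regions all lay below 0, 12 of 12, from -0.89 to -0.06 with a median of -0.32. Of the 12, 9 were below 0 without young replicate 3, without aged replicate 4 and with the replicate block, in which aged replicate 4 does not inform the comparison. With GC offsets and with aged replicates 1 and 4 summed, 11 were. The promoter was among those that turned, at 0.026 and 0.029 without these 2 libraries. The called region was intronic, on chromosome 1 from 190147668 to 190150048. It had 24.9, 19.2 and 24.8 CPM in young and 15.9, 14.1, 14.5 and 12.0 CPM in aged libraries, and every aged library was lower. Mean accessibility fell from 23.0 ± 3.29 (SD, n = 3) in young to 14.1 ± 1.63 CPM (SD, n = 4) in aged liver, with a fold change of -0.69 on the log2 scale (SE 0.164, adjusted p = 0.0292 from edgeR). This call held with total counts (-0.81), abundance offsets (-0.72) and GC offsets (-0.62), and was lost without young replicate 1, 2 or 3 and without aged replicate 1 or 3 (adjusted p from 0.0525 to 0.122). An intronic region from 190134906 to 190135244 had a lower value still, -0.89, with 5.52 to 9.16 CPM in young and 2.67 to 5.10 CPM in aged libraries, and did not pass (adjusted p = 0.0803). The promoter from 190167987 to 190170977, shared with Prox1os and Gm28172, had 50.9 to 62.2 CPM in young and 40.9 to 60.6 CPM in aged libraries (log2 fold change -0.08, SE 0.138, adjusted p = 0.77). The 3 regions upstream of it were also near 0, from -0.13 to -0.06, among them the strongest of Prox1 per length (28.1 CPM per kb), and the lower values lay inside the gene and downstream of it.

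The 2 intronic regions called at Hnf4a and Prox1 are each represented by a 300-base stretch of GRCm38.p6 that holds a match to the FOXA word TGTTTAC, in capitals, printed on the plus strand of the genome with matches on either strand. They are shown because they rose and fell, respectively, while both held the word.
Hnf4a intronic region, chr2:163538391-163538690, plus strand: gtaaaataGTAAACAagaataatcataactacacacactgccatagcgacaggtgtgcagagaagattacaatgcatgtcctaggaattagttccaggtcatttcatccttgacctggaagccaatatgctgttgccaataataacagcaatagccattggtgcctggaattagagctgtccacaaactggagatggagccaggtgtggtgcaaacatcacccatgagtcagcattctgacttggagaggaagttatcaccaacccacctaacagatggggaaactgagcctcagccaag
Prox1 intronic region, chr1:190147908-190148207, plus strand: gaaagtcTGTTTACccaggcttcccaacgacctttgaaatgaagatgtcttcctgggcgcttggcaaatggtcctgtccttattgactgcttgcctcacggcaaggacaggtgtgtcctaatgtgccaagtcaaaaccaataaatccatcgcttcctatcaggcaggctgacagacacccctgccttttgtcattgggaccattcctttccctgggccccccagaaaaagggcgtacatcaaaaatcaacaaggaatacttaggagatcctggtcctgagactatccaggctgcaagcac
Counted in the central 300 bp of each region, the FOXA word stood in 5 of the 79 member regions (6.33%) and in 5.93% of all regions. The ONECUT word stood in 1 member region (1.27%) and in 4.58% of all regions, and the HNF1 word in 2 (2.53%) and 1.45%. The words of HNF4 (CAAAGTCCA), C/EBP (TTGCGCAA), NR5A2 (TCAAGGTCA) and the cAMP response element (TGACGTCA) stood in 0 member centres, and in 1.40%, 0.163%, 0.821% and 0.652% of all regions. Over their whole length the called regions held 2 ONECUT words at Onecut1, 1 at Foxa2, 2 HNF1 words and 1 FOXA word at the Nr5a2 upstream promoter, 1 FOXA and 1 NR5A2 word at Hnf4a and 1 FOXA word at Prox1. The region further upstream of Nr5a2 held none.

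The C/EBP genes, which encode factors of liver metabolism (Cebpa) and of the acute phase response and regeneration (Cebpb), had strong promoters with little difference between the ages. The Cebpa promoter on chromosome 7 from 35117980 to 35120479, which is also a promoter of Gm45091, had 134.1, 130.3 and 125.0 CPM in young and 129.4, 136.3, 153.4 and 130.2 CPM in aged libraries (log2 fold change 0.08, SE 0.107, adjusted p = 0.693 from edgeR). The Cebpb promoter on chromosome 2 from 167687458 to 167689969, which is also a promoter of Tmem189, had 122.3, 141.4 and 127.8 CPM in young and 134.6, 138.7, 146.4 and 154.3 CPM in aged libraries (0.14, SE 0.108, adjusted p = 0.468). At both promoters the ages overlapped. Around them, in the reported fit, 3 of 3 other Cebpa regions lay above 0 and 6 of 6 other Cebpb regions below 0. None of these 9 was called, and the difference between the genes was not tested. With total counts 3 of all 4 Cebpa regions were above 0, and with abundance offsets 1 was. At Cebpa the upstream region from 35116557 to 35117365 had 24.7 to 30.5 CPM in young and 33.1 to 38.4 CPM in aged libraries, with every aged library higher (0.34, adjusted p = 0.113). The downstream region from 35122191 to 35123843, as strong per length as the promoter at 55.0 CPM per kb, was at 0.23 (adjusted p = 0.321). At Cebpb the lowest value was -1.07 in a downstream region from 167692925 to 167693260 (adjusted p = 0.0959), where aged replicate 1 had 2.02 CPM and the other aged libraries 7.24 to 9.22 CPM, and the young libraries 8.61 to 15.6 CPM. The 5 downstream Cebpb regions overlap A530013C23Rik, and that from 167691057 to 167692562 also covers a promoter of it.

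By level per length averaged over both ages, the promoters of Cebpb (54.9 CPM per kb), Cebpa (53.6) and Foxa3 (47.3) were the strongest over all 7 libraries, followed by Foxa1 (36.0), Foxa2 (35.1) and Onecut1 (26.6). Hnf4a P1 (22.6), the Nr5a2 upstream (20.4) and internal (19.6) promoters, Prox1 (17.8) and Hnf4a P2 (16.2) were the weakest. The neighbours Cebpb and Cebpa, Foxa1 and Foxa2, Onecut1 and Hnf4a P1, and each neighbouring pair among the last 4 differed by less than the larger SD between libraries of the same age. The steps from Cebpa to Foxa3, from Foxa3 to Foxa1, from Foxa2 to Onecut1 and from Hnf4a P1 to Nr5a2 were larger than that SD. The order of the means differed between the ages, mostly within the spread. In young liver Onecut1 (18.0 CPM per kb) stood below Hnf4a P1 (20.4), the internal Nr5a2 promoter (19.1) and Prox1 (18.3), and the upstream Nr5a2 promoter (16.5) was the lowest, below Hnf4a P2 (17.2), and each neighbouring pair of these 6 differed by less than the larger SD of the pair. Foxa2, at 28.5 CPM per kb, stood below Foxa1 in young liver, and at 40.1 CPM per kb it stood above Foxa1, at 38.2 CPM per kb, in aged liver, both by less than the SD of Foxa1 between libraries of that age (6.24 and 4.61 CPM per kb).

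When all counts of a gene and its 10 kb flanks were summed and tested over 16231 protein-coding genes, 2 of the 9 members, Onecut1 and Foxa2, were more accessible in aged liver, where 6.10% of genes were. By edgeR 0 members were less accessible, where 3.27% of genes were. No member was less accessible at an unadjusted p under 0.05, by DESeq2 or by limma voom, and Onecut1 and Foxa2 alone were more accessible at an unadjusted edgeR p under 0.05. The Onecut1 locus had 144.3, 151.9 and 178.4 CPM in young and 339.5, 217.3, 293.9 and 241.8 CPM in aged libraries (log2 fold change 0.79, SE 0.146, adjusted p = 0.0194 from edgeR). Its promoter region held 80.8% of the counts of the locus in young and 86.3% in aged liver, so that the locus value is largely that of the promoter. The Foxa2 locus had 157.5, 162.8 and 162.6 CPM in young and 263.6, 198.1, 238.1 and 197.4 CPM in aged libraries (0.48, SE 0.111, adjusted p = 0.0307). At both loci every aged library was higher. The Onecut1 locus lost its call without young replicate 1 or 2 and without aged replicate 1 or 3 (adjusted p from 0.0589 to 0.0701), and the Foxa2 locus without young replicate 1, 2 or 3 and without aged replicate 1 or 3 (adjusted p from 0.0513 to 0.0894). With abundance offsets both were lost (adjusted p = 0.0632 and 0.156), as with aged replicates 1 and 3 summed (0.0554 and 0.0781), and the Foxa2 locus was lost with total counts (0.0652) and with at least 10 counts in every library (0.0539).

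**Figure D4:**
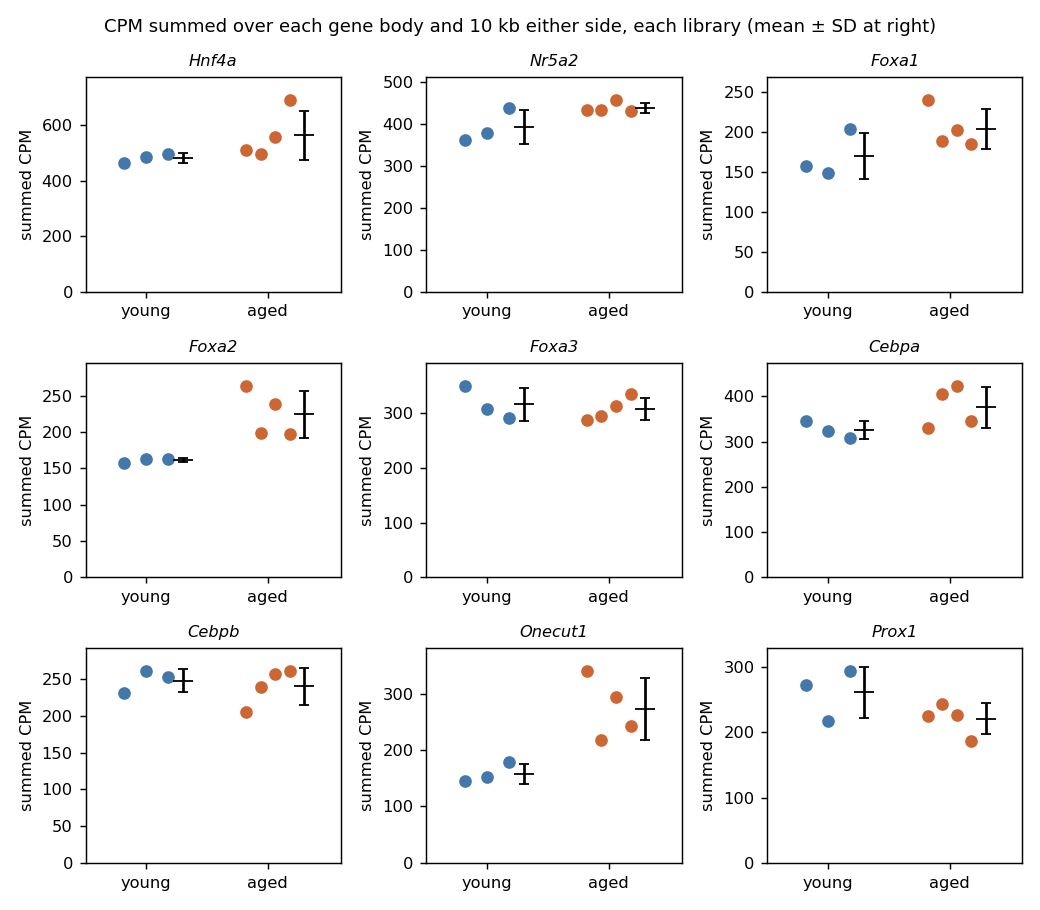
CPM summed over each gene body and 10 kb on either side for the 9 genes, each library as a point (young blue, aged orange) with the mean ± SD beside each group. At Onecut1 and Foxa2 all aged libraries lie above all young ones, and at the other 7 genes the ages overlap.

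The other loci overlapped between the ages. Hnf4a had 462.1, 486.4 and 496.4 CPM in young and 509.4, 496.4, 556.6 and 689.8 CPM in aged libraries, a log2 fold change of 0.23 (SE 0.119, adjusted p = 0.204 from edgeR), with aged replicate 4 the highest. Foxa1 was at 0.27 (adjusted p = 0.157), Cebpa at 0.21 (0.201), Nr5a2 at 0.16 (0.245), Foxa3 at -0.04 (0.79), Cebpb at -0.05 (0.772) and Prox1 at -0.24 (0.18), all adjusted p from edgeR. The median of the 9 was 0.21, and that of all genes 0.08.

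The promoters whose profile over the 7 libraries lay nearest to those of the called main promoters were found by the distance between centred log2 CPM values, among 11160 protein-coding genes. Nearest to Foxa2 were Mob1a and Mthfd2, which share a promoter region, at 0.147, and Bms1 at 0.153. Nearest to Onecut1 were Itih2 (0.380), Keg1 (0.447) and Gjb1 (0.475). The distances were larger at Onecut1 than at Foxa2.

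Other transcription factors of liver and textbook targets of these factors were looked up at their main promoters. Of 24 other liver transcription factors, all with a promoter region, 1 was more accessible in aged liver, Gata6, a zinc finger factor of endoderm (log2 fold change 0.42, adjusted p = 0.0413 from edgeR), and 0 were less accessible, compared with 4.48% and 2.06% of all promoter regions (2 less accessible at an unadjusted p under 0.05, and 0 by DESeq2 and limma voom). The values of Nr1h3, the oxysterol receptor gene (0.37, adjusted p = 0.0617), and Xbp1, of the unfolded protein response (0.34, adjusted p = 0.0639), came next. In all 21 of the 24 lay above 0, with a median of 0.26. Of 22 target genes, 21 had a promoter region, 2 were more accessible, the apolipoprotein genes Apoc3 (0.52, adjusted p = 0.0218) and Apoa1 (0.53, adjusted p = 0.0331), beside the same 4.48% of all promoter regions, and 0 were less accessible, where 2.06% of promoter regions were. The count was 0 also at an unadjusted p under 0.05 and by DESeq2 and limma voom. Apoa1 and Apoc3 are neighbours on chromosome 9, with regions from 46228367 to 46232634 and from 46234688 to 46235917, so their calls are not of separate loci. Apart from Ass1, the hepatocyte markers above are also in this list of targets. Alb, which encodes serum albumin, was at 0.13 (adjusted p = 0.695) with the ages overlapping. Of the targets 19 lay above 0, with a median of 0.28. Over all promoter regions the median was 0.09. That set, and the shares of 4.48% and 2.06%, also include weaker and secondary promoters. The lists took only the strongest promoter region of each gene, so the sets are unlike, and the differences were not tested. With total counts the median of all regions was -0.15 in place of -0.04, so that all values of this paragraph and those above are relative to the scaling of the libraries.

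**Figure D5:**
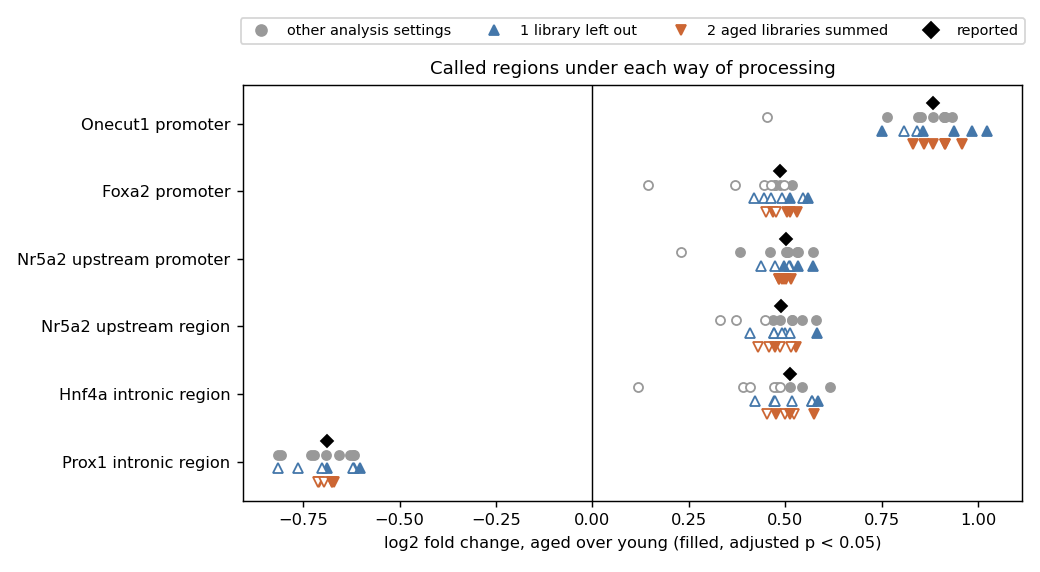
Log2 fold change (horizontal axis) of the 6 called regions under the reported fit (diamonds), other analysis settings (circles), leaving out 1 library (upward triangles) and summing 2 aged libraries (downward triangles), filled where the adjusted p was under 0.05. All values keep the sign of the reported fit, and many symbols are open.

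Under 22 alternatives each, the direction of all 6 called regions was kept. The call was kept in 19 of the 22 at the Onecut1 promoter, 16 at the Nr5a2 upstream promoter, 15 at the Prox1 intronic region, 10 at the Foxa2 promoter, 9 at the region upstream of Nr5a2 and 8 at the Hnf4a intronic region. The Onecut1 value ran from 0.45 to 1.02, and all 6 ways of summing a pair of aged libraries left it called. With aged replicates 1 and 3 summed, the calls at the other 5 regions were lost (adjusted p from 0.0601 at the Nr5a2 upstream promoter to 0.0976 at the region upstream of it). With replicates 2 and 3 summed the calls at the Hnf4a (0.054) and Prox1 (0.0522) intronic regions and at the region upstream of Nr5a2 (0.0774) were lost. With 3 and 4 summed those at the Foxa2 promoter (0.0613), the Hnf4a intronic region (0.0794) and the region upstream of Nr5a2 (0.0511) were lost. With 1 and 2 summed the call at the region upstream of Nr5a2 was lost (0.0787). No near-identical copy was found for any of the 79 member regions, where a copy had to match at least 80% of the region at 95% identity.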

How the data were processed

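The authors deposited raw read counts in 55680 consensus regions for each of the 7 libraries, with no normalization. According to their methods and the submitters' processing notes, reads were trimmed with cutadapt 1.13, aligned to GRCm38 with Bowtie2 2.4.1 and cleared of PCR duplicates and mitochondrial reads, peaks were called per library with MACS2 2.2.7, and reads were counted with featureCounts in consensus regions where 2 or more libraries had a peak. All 7 columns matched a sample. The genes, lists and motifs were chosen with earlier results of these data known. Counts were fitted with edgeR 4.0.16 (TMM, quasi-likelihood test, no filter on low counts, Benjamini-Hochberg adjustment over all regions) in R 4.3.3, a fit also tested on simulated data. The study's own tool, DESeq2, was an alternative (version 1.42.0), as was limma 3.58.1. Log2 CPM had a prior count of 2. Regions were annotated with GENCODE M21, and copies were sought with minimap2 2.31. The text names for each gene its promoter regions, called regions, the region of smallest p and the strongest region per length, the 3 nearest promoters of called main promoters, and 2 to 4 genes of smallest adjusted p of other lists. Other regions were added after their values were seen. Same-age libraries differed by more than sampling noise (chi-square per degree of freedom from 2.38 to 6.06), so none was counted as a duplicate.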

Additional observations from a re-analysis of the deposited data

Results flagged for a closer look

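Of 23 promoter, called-region and locus values, 2 had 1 aged library far from the other 3, by Dixon's criterion on the gap relative to the spread of the 4 aged libraries. About 1 in 20 groups would be picked out by chance. At the Foxa1 promoter, aged replicate 1 stood at 6.62 on the log2 CPM scale, the other aged libraries at 6.28 to 6.31 and the young libraries at 5.98 to 6.45. At the Nr5a2 locus, the summed level of aged replicate 3 was 8.83 on the log2 CPM scale, with the other aged libraries at 8.75 to 8.76 and the young libraries at 8.49 to 8.77.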

How the results depend on the processing

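For each change below the cause was not tested, apart from settings that use fewer libraries or fewer regions by construction. In the reported fit 5 member regions were more and 1 was less accessible, 3 promoter regions and 2 loci were called, and the median of the main promoters was 0.14.

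Counts over all regions moved too: 2.44% were more and 3.30% less accessible in the reported fit, and the share more accessible was 4.96% with DESeq2, 6.28% with GC offsets, 0.975% with total counts, 1.11% with at least 10 counts in every library, 0.483% with abundance offsets, and 0.483%, 1.26% and 1.31% with aged 1 and 3, 2 and 3, and 3 and 4 summed. More accessible member regions numbered 8 with DESeq2, 9 with GC offsets, 2 with total counts, 2 with at least 10 counts in every library, 0 with abundance offsets, 0 at an adjusted p under 0.01, and 1, 3 and 2 with aged 1 and 3, 2 and 3, and 3 and 4 summed. Less accessible member regions numbered 2 with total counts and 2 with limma voom, where 5.26% and 4.28% of all regions were less accessible. They numbered 3 of the 138 regions within 50 kb and 0 at an adjusted p under 0.01. With aged 1 and 3 or 2 and 3 summed they numbered 0, where 1.24% and 1.99% of all regions were less accessible. Promoters called numbered 0 with abundance offsets, 0 at an adjusted p under 0.01, and 1 with aged 1 and 3 summed. Loci called numbered 1 with total counts, 1 with at least 10 counts in every library, 0 with abundance offsets, 0 at an adjusted p under 0.01, and 0 with aged 1 and 3 summed. The median of the main promoters was 0.016 with total counts and -0.22 with abundance offsets.

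Leaving out each library in turn gave 0 to 6 more accessible regions, 0 to 1 less accessible, 0 to 3 promoters, 0 to 2 loci, and a median of 0.12 to 0.27.

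Single promoters that did not pass in either fit changed sign. With total counts Foxa3 was at -0.049, Cebpa at -0.039 and Nr5a2 at -0.046. With abundance offsets Hnf4a was at -0.041, Foxa1 at -0.065, Foxa3 at -0.27, Cebpa at -0.29, Cebpb at -0.24 and Nr5a2 at -0.22. Nr5a2 ran from -0.029 to 0.29 and Prox1 from -0.16 to 0.029 when 1 library was left out.

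Young and aged libraries share replicate numbers, and the labels do not say whether the numbers pair them. The deviations of same-numbered libraries correlated at -0.119, 0.0565 and 0.0298, and so few values cannot exclude a pairing. A fit with the replicate number as a block gave 5 more accessible and 2 less accessible regions, 2 promoters and 2 loci. Of the 5 reported increases, those at the Foxa2 promoter (adjusted p = 0.0517) and in Hnf4a (0.0981) were lost under the block, and the Prox1 promoter was at 0.029. Depth limits the weak member regions, and the lowest count of any of them in a library was 8.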
